A study of Mus musculus with 7 samples.

Results

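Dystrophin, the dystroglycan and sarcoglycan proteins bound to it, its homologue utrophin, and the polarity proteins Mark2 and Pard3 were followed at the RNA level in mouse satellite cells, the resident stem cells of muscle. The genes were Dmd, Utrn, Dag1, Sgca, Sgcb, Sgcd, Mark2 and Pard3, and their probes were taken as all non-control probes of the array that carry 1 of these 8 gene names. These are 8 of 36406 names on the array, and they had 18 probes on 20 spots, of 55681 probes on 59305 spots in all. A filter on dim probes asked that 3 or more of the 7 arrays show a signal well above background. All 18 probes passed it, as did 41257 probes of the array.

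The geriatric arrays numbered 4 and came from male C57BL/6 mice of 28, 28, 29 and 30 months, and the 3 young arrays came from male C57BL/6 mice of 2, 2 and 3 months. Per the design text, the cells of both groups came from muscle in homeostasis. They were sorted as positive for integrin α7 and CD34 and as lacking Sca1, CD11b, CD45 and CD31. The RNA was amplified, with a protocol made for very few cells, before Cy3 labelling. Geriatric arrays 1 and 2 are titled as separate biological replicates. They carried the same sample name, however, and agreed within 2 combined measurement errors for nearly all probes. They were therefore averaged and counted as 1 sample, which left 3 geriatric and 3 young samples. Whether they hold 1 RNA is not stated. The labels do not say how many mice went into a sample, so the p-values rest only on the spread among these samples.

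In muscle, dystrophin links the actin cytoskeleton under the membrane to dystroglycan, which binds laminin outside the cell, and the sarcoglycans hold that link in the membrane. In mouse satellite cells dystrophin is also known to bind the kinase Mark2 (Par1b), which acts on the position of Pard3 (Par3) when an activated cell divides asymmetrically. Utrophin, made from an autosomal gene, has a similar structure and can take over part of dystrophin's role in muscle. The Dmd gene also makes shorter products from internal promoters, so a probe at the start of the transcript reads full-length dystrophin, while a probe near the end of the coding sequence also reads shorter products.

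Each probe is a 60-base oligonucleotide, and its sequence decides which stretch of a transcript was read. The sequences shown are those of the probes with which the main values were measured and that lie in coding sequence, in the sense direction, 5′ to 3′, as given in the array files; no letters are capitalised.
Dmd, start of the full-length transcript (A_55_P2167913): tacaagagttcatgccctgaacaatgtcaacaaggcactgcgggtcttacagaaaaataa
Dmd, middle of the transcript (A_55_P2167922): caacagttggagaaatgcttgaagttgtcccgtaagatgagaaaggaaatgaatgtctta
Dmd, part shared with shorter products (A_52_P306697): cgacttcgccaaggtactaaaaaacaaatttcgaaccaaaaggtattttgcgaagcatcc
Utrn (A_55_P2212027): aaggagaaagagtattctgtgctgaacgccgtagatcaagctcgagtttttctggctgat
Sgca (A_55_P2007384): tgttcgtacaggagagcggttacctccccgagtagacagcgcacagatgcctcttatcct
Sgcd, upstream probe (A_55_P2138714): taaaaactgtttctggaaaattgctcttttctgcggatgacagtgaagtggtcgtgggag
Sgcd, downstream probe (A_51_P389004): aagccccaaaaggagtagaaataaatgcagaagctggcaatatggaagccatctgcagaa
Pard3 (A_55_P1985012): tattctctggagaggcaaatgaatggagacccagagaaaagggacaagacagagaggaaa
On mm9, the build of the array files, the 3 Dmd probes lie on the plus strand at chrX:80596782-80596841, chrX:81132417-81132476 and chrX:82389391-82389450. They begin at bases 450, 4942 and 10335 of the same muscle transcript. The Utrn probe lies at chr10:12221228-12221287 and the Sgca probe at chr11:94824546-94824605, both on the minus strand. The Sgcd probes, also on the minus strand, lie at chr11:46939058-46939117 and chr11:46794345-46794404 and read bases 467 to 526 and 653 to 712 of 1 transcript. The Pard3 probe lies on the plus strand at chr8:129950493-129950552. All probes were placed by the genome and transcript positions in the array files, and no exon annotation of mm9 was used. The symbols of all 8 genes were found in the RefSeq table of GRCm38.p6, on the same chromosomes.

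For none of the 18 probes did the difference between geriatric and young cells pass the test. At an adjusted p below 0.05 (limma, Benjamini-Hochberg over all 41257 tested probes) 0 of 18 were called, against 6 of all tested probes, which is 0.0145%. At an unadjusted p below 0.05 the count was also 0 of 18, against 7.32% of all tested probes. Geriatric values averaged higher for 14 of 18 probes, against 20247 of 41257 over all tested probes. The count for the members became 8 of 18 when arrays were scaled to their median in place of their 75th percentile. Several of the 18 probes read the same gene, so they are not independent of each other. The median log2 difference, geriatric minus young, was 0.06 over the 18 probes and -0.0080 over all tested probes. The median size of the difference, its sign left aside, was 0.127 over the 18 probes and 0.256 over all tested probes. Levels below are log2 of the processed signal relative to the array's 75th percentile, so a level of 0 is that percentile and 1 unit is a 2-fold step. Fewer cells of one kind and less RNA per cell cannot be told apart in such bulk samples.

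**Figure D1:**
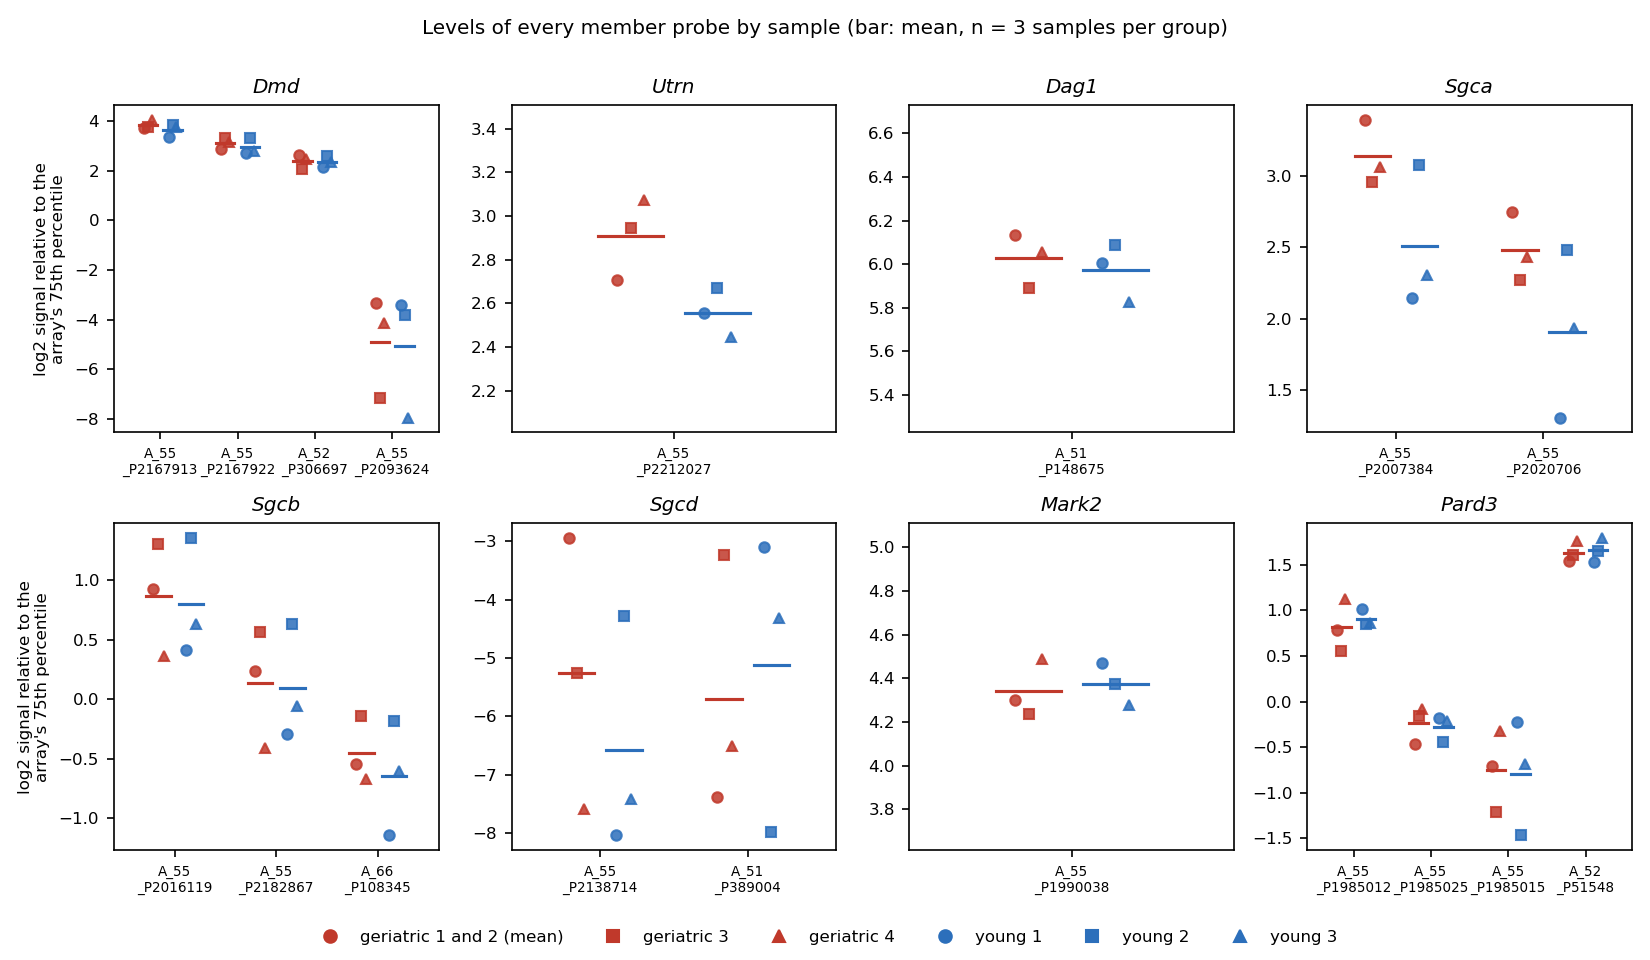
Level of each probe (vertical axis, log2 signal relative to the array's 75th percentile) in the 3 geriatric samples (red, left of each pair) and the 3 young samples (blue, right), with bars at the group means; symbols only name samples and do not pair them. Only for Utrn do the red points all lie above the blue points, and the dim probes of Sgcd and Dmd spread over 3 to 5 units within each group.

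Dmd, which encodes dystrophin itself, was well above background on all 7 arrays with the 3 probes shown above. The probe at the start of the full-length transcript (A_55_P2167913) read 3.75, 3.70, 3.74 and 4.03 on geriatric arrays 1 to 4, against 3.35, 3.83 and 3.75 on young arrays 1 to 3. Young array 1 was the lowest and geriatric array 4 the highest, and the other arrays of both groups overlapped. The group means were 3.84 ± 0.17 in geriatric and 3.64 ± 0.26 in young cells (SD, n = 3 samples each). Their difference was 0.19 (SE 0.21, 95% confidence interval -0.33 to 0.72), a fold of 1.14 (0.794 to 1.65), with a limma adjusted p of 0.903. Without young array 1 it was 0.045. The unscaled signal of this probe ran over 18460 to 21790 intensity units on geriatric and 14730 to 21720 on young arrays.

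The Dmd probe in the middle of the transcript (A_55_P2167922) read 2.86, 2.89, 3.31 and 3.17 on the geriatric arrays, against 2.70, 3.31 and 2.80 on the young arrays. Geriatric array 3 and young array 2 were highest together, and the groups overlapped. The difference was 0.18 (SE 0.24, limma adjusted p = 0.921), and 0.065 without young array 1. The probe near the end of the coding sequence (A_52_P306697), which also reads shorter products, gave 2.62, 2.68, 2.07 and 2.46 in geriatric cells, against 2.13, 2.60 and 2.34 in young cells. Here geriatric array 3 was the lowest of all, in contrast to its place with the middle probe, and the difference was 0.04 (SE 0.24, limma adjusted p = 0.985).

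Whether parts of the Dmd transcript moved apart was asked with the ratio of 2 probes within a sample. The log2 ratio of the end probe over the start probe was -1.08, -1.67 and -1.57 in the geriatric samples, against -1.22, -1.23 and -1.41 in the young samples. The geriatric samples had both the highest and the lowest ratio, so the groups overlapped. The difference in this ratio was -0.16 (exact permutation test over samples, 2-sided, p = 0.4). For the middle over the start probe the ratio differed by -0.01 (exact permutation p = 1). With 10 such probe pairs tested over all members, every adjusted p was 1, and 0.1 is the smallest p that 3 against 3 samples allow.

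A further Dmd probe (A_55_P2093624, chrX:82451421-82451480, plus strand, from base 14850 of a longer Ensembl transcript) was close to background. On geriatric array 3 and young array 3 it was not well above background. Its levels were -4.07, -2.63, -7.17 and -4.13 on the geriatric arrays, against -3.40, -3.81 and -7.94 on the young arrays. Each group held 1 array far below its others. The difference was 0.17 with an SE of 1.55 (limma adjusted p = 0.990), and its interval of -3.64 to 3.98 leaves the size unknown within a wide range. The averaged arrays 1 and 2 themselves differed by 1.44 at this probe, against a median of 0.058 over all 18 probes.

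Utrn, the utrophin gene, was read by 1 probe (A_55_P2212027) from base 7910 of its transcript. It gave 2.67, 2.74, 2.95 and 3.07 on geriatric arrays 1 to 4, against 2.55, 2.67 and 2.44 on the young arrays. All 3 geriatric samples lay above all 3 young samples, which was so for 1 of the 18 probes and for 12.8% of all tested probes in either direction (6.91% with geriatric higher). Geriatric array 1 taken alone, at 2.667, lay just under young array 2, at 2.671. The means were 2.91 ± 0.19 in geriatric and 2.56 ± 0.11 in young cells (SD, n = 3 samples each). The difference of 0.35 (SE 0.19, 95% interval -0.11 to 0.81) is a fold of 1.28 and had a limma adjusted p of 0.766. On the slide, all young arrays and geriatric array 1 lay in row 1 and geriatric arrays 2 to 4 in row 2. With the row as a block the difference was 0.11. Since row 2 held no young array, that value sets geriatric array 1 alone against the young arrays. Row and age group can hardly be told apart in this layout, and the part of the row in the result was not tested further.

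**Figure D2:**
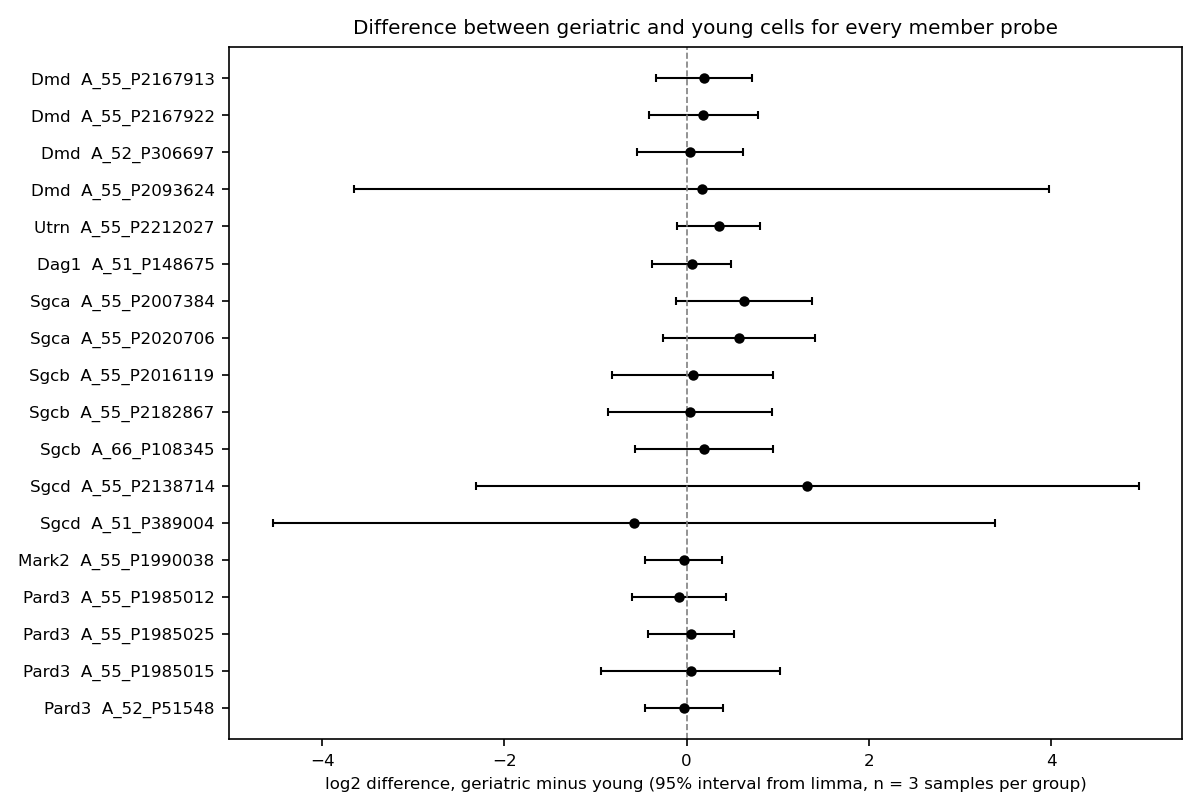
Log2 difference, geriatric minus young, of each of the 18 probes (points) with its 95% confidence interval from limma (bars, n = 3 samples per group). Every interval crosses 0 (dashed line), and the 3 dim probes of Sgcd and Dmd have intervals several units wide.

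Dag1 makes the precursor that is cut into both dystroglycan subunits, and its probe (A_51_P148675, chr9:108108491-108108550, minus strand) was bright and steady. It read 6.03, 6.23, 5.89 and 6.06 on the geriatric arrays, against 6.01, 6.09 and 5.82 on the young arrays. All 7 values lay within about the same narrow band, and the groups overlapped. Its means were 6.03 ± 0.12 in geriatric and 5.97 ± 0.13 in young cells (SD, n = 3 samples each). With a difference of 0.05 (SE 0.18, limma adjusted p = 0.972) the interval of the fold was 0.768 to 1.40, so a change larger than that was not seen in either direction. The unscaled signal was 88540 to 106900 intensity units in geriatric and 91360 to 104000 in young cells.

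Sgca encodes α-sarcoglycan and showed the smallest adjusted p among the 18 probes, without passing the test. The probe shown above (A_55_P2007384) gave 3.38, 3.40, 2.96 and 3.06 on the geriatric arrays, against 2.15, 3.08 and 2.31 on the young arrays. Young arrays 1 and 3 lay below all geriatric arrays, and young array 2 lay among them. The difference was 0.63 (SE 0.30, 95% interval -0.12 to 1.37), a fold of 1.54 with a limma adjusted p of 0.739. The second Sgca probe (A_55_P2020706, chr11:94824124-94824183, minus strand) read 2.75, 2.74, 2.27 and 2.43 in geriatric cells, against 1.31, 2.48 and 1.94 in young cells. The same young array 2 was the one among the geriatric values, and the difference was 0.57 (SE 0.34, limma adjusted p = 0.790), and 0.27 without young array 1. Without young array 2 the first probe differed by 0.91, still above an adjusted p of 0.05. In geriatric cells the ratio of the second over the first probe had an SD of 0.03 between samples, against 0.23 in young cells.

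Sgcb encodes β-sarcoglycan and has 3 probes (A_55_P2016119 at chr5:74026579-74026638, A_55_P2182867 at chr5:74026514-74026573 and A_66_P108345 at chr5:74024927-74024986, all on the minus strand). The first read 0.92, 0.93, 1.30 and 0.37 on the geriatric arrays, against 0.41, 1.35 and 0.63 on the young arrays. The second read 0.27, 0.21, 0.57 and -0.41 in geriatric cells, against -0.29, 0.63 and -0.06 in young cells. The third gave -0.56, -0.52, -0.14 and -0.67 in geriatric cells, against -1.15, -0.18 and -0.60 in young cells. With all 3 probes geriatric array 3 and young array 2 were the highest of their groups, and geriatric array 4 and young array 1 the lowest. The differences were 0.07 (SE 0.36), 0.04 (SE 0.36) and 0.19 (SE 0.31), with limma adjusted p of 0.983, 0.990 and 0.933. The spread between samples within a group was thus larger than the difference between groups for every Sgcb probe. It was shared by neighbouring probes, since the ratio of the second over the first had an SD of 0.05 among geriatric and 0.02 among young samples.

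Sgcd, the gene of δ-sarcoglycan, was near background, and its 2 probes did not see it on the same arrays. The upstream probe (A_55_P2138714) read -2.96, -2.92, -5.25 and -7.58 on the geriatric arrays, against -8.04, -4.28 and -7.43 on the young arrays. It was well above background on geriatric arrays 1 and 2 and on young array 2 only. The upstream probe thus passed the filter only because the averaged arrays 1 and 2 were counted separately there. The downstream probe (A_51_P389004) read -7.32, -7.46, -3.23 and -6.50 on the geriatric arrays, against -3.09, -7.98 and -4.31 on the young arrays. It was well above background on geriatric array 3 and on young arrays 1 and 3 only. So 6 of 7 arrays measured 1 of the 2 probes and never both, and geriatric array 4 measured neither. The differences of 1.32 (SE 1.48, limma adjusted p = 0.903) and -0.58 (SE 1.61, limma adjusted p = 0.967) point in opposite directions and have intervals of -2.31 to 4.96 and -4.54 to 3.38. Geriatric arrays 1 and 2, averaged as 1 sample, gave nearly the same levels with both probes. At these signals no level of Sgcd could be compared between the groups.

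**Figure D3:**
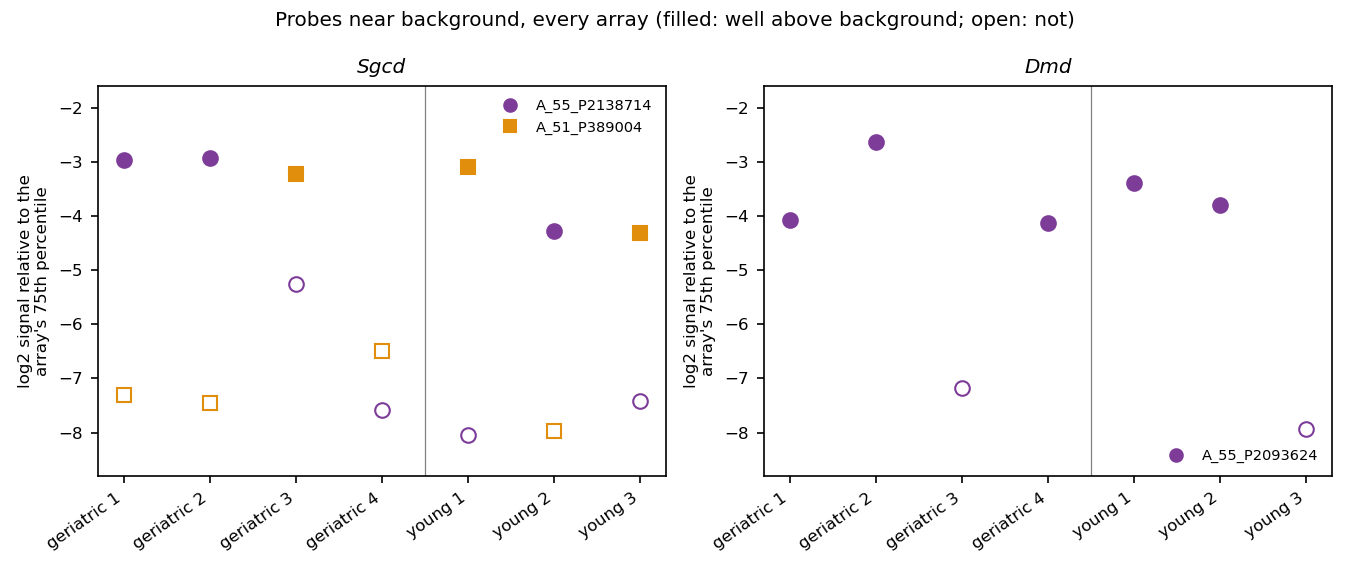
Levels (vertical axis, log2 signal relative to the array's 75th percentile) of the 2 Sgcd probes (left) and the dim Dmd probe (right) on geriatric arrays 1 to 4 and young arrays 1 to 3. Filled symbols are well above background and open ones are not; on 6 of 7 arrays 1 Sgcd probe is filled and the other open.

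Mark2, the polarity kinase that dystrophin binds in satellite cells, was read by 1 probe (A_55_P1990038, chr19:7350212-7350271, minus strand). It gave 4.25, 4.35, 4.24 and 4.49 on the geriatric arrays, against 4.47, 4.37 and 4.28 on the young arrays. The groups overlapped over their whole range. Its means were 4.34 ± 0.13 in geriatric and 4.37 ± 0.10 in young cells (SD, n = 3 samples each), and the difference was -0.03 (SE 0.17, 95% interval -0.46 to 0.39, limma adjusted p = 0.983). The interval of the fold was 0.729 to 1.31. Before scaling, the processed signal was 29060 to 30220 intensity units on the 4 geriatric arrays and 31280 to 32100 on the 3 young arrays. These unscaled values did not overlap, but they count each geriatric array separately, also those averaged elsewhere as 1 sample. The share of all tested probes without such overlap before scaling was not computed. The array's 75th percentile, by which signals are divided, varied over 1330 to 1589 units on geriatric and 1446 to 1612 on young arrays. After scaling the Mark2 groups overlapped, so the unscaled values were not taken as a difference between the groups.

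Pard3, the polarity scaffold found at the opposite pole to Mark2, has 4 probes, given by the array files for 3 transcripts, of which A_55_P1985015 and A_52_P51548 share 1. The probe shown above (A_55_P1985012) gave 0.83, 0.74, 0.56 and 1.12 on the geriatric arrays, against 1.01, 0.85 and 0.86 on the young arrays. Geriatric arrays 3 and 4 lay on either side of all young arrays, and the difference was -0.09 (SE 0.21, limma adjusted p = 0.962). The probe with the highest signal (A_52_P51548, chr8:130135585-130135644, plus strand) read 1.53, 1.54, 1.61 and 1.75 in geriatric cells, against 1.53, 1.65 and 1.79 in young cells. Its means were 1.63 ± 0.11 in geriatric and 1.66 ± 0.13 in young cells (SD, n = 3 samples each), and its difference was -0.03 (SE 0.17, limma adjusted p = 0.985).

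Another Pard3 probe (A_55_P1985025, chr8:129925900-129925959, plus strand) ran over -0.46 to -0.08 in geriatric and -0.44 to -0.18 in young cells and differed by 0.05 (SE 0.19, limma adjusted p = 0.977). The remaining one (A_55_P1985015, chr8:130134671-130134730, plus strand) ran over -1.21 to -0.33 in geriatric and -1.47 to -0.22 in young cells. It was the most variable of the Pard3 probes within both groups, and its difference was 0.04 (SE 0.40, limma adjusted p = 0.990). Relative to the probe with the highest signal, the other Pard3 probes differed between geriatric and young cells by -0.06, 0.07 and 0.07 log2 units (exact permutation p = 0.8, 0.7 and 1). None of the 3 ratios passed the test. Only those of A_55_P1985012 and A_55_P1985025 pair probes annotated to different Pard3 transcripts. Whether these probes also read the other transcripts was not tested, so the ratios need not compare transcripts.

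Genes linked to these 8 were described by 4 lists, each gene read by its brightest tested probe. Of the 59 tested genes, 0 were called (limma adjusted p below 0.05), against 0.0183% of all 27395 tested genes. At an unadjusted p below 0.05 there were 4 of 59, against 6.69% of all tested genes. Higher in geriatric cells were 32 of 59, against 13575 of all 27395 tested genes. The count of 32 became 24 of 59 with arrays scaled to their median.

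Among the other members of the dystrophin complex, 13 of 14 genes were tested, 9 were higher in geriatric cells and the median difference was 0.19, against -0.0032 over all tested genes. Drp2, which encodes a dystrophin-related protein, averaged 3.40 ± 0.31 in geriatric and 4.22 ± 0.13 in young cells (SD, n = 3 samples each). Its 3 geriatric values lay below its 3 young values, and the difference of -0.82 (SE 0.22) had a limma adjusted p of 0.486. Sntg1, a syntrophin gene, differed by 1.74 (SE 0.56, limma adjusted p = 0.580) but was well above background on only 3 geriatric arrays and 1 young array. Sntb2, which encodes another of the syntrophins that dystrophin binds, differed by 0.67 (SE 0.38, limma adjusted p = 0.779). Groups did not overlap for 2 of the 13 genes, against 12.8% of all tested genes. Cav3, the muscle caveolin gene, was well above background on 1 array and was not tested.

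Of the enzymes that add the laminin-binding sugars to dystroglycan or supply their precursors, 15 of 18 were tested, 7 were higher in geriatric cells and the median difference was -0.05. Dolk, dolichol kinase, differed by -0.50 (SE 0.21, limma adjusted p = 0.683), and Pomt2, a protein O-mannosyltransferase, by -0.45 (SE 0.19, limma adjusted p = 0.688). Groups did not overlap for 4 of the 15 genes, against 12.8% of all tested genes. Ispd was well above background on 1 array, and Gtdc2 and Sgk196 were not found under these names.

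Of the ligands that bind dystroglycan outside the cell or its complex, 8 of 10 genes were tested, 4 were higher in geriatric cells and the median difference was 0.17, which turned to -0.15 over the genes well above background on all 7 arrays and to -0.15 without geriatric arrays 1 and 2. Lama4, a laminin α chain, read -1.29, -0.75 and -1.83 in the geriatric samples, against -3.92, -2.57 and -3.48 in the young samples. All geriatric values lay above all young values, and the difference was 2.03 (SE 0.45, limma adjusted p = 0.367). Slit2 differed by -0.75 (SE 0.33, limma adjusted p = 0.695) and Bgn, biglycan, by 0.49 (SE 0.24, limma adjusted p = 0.749). Groups did not overlap for 3 of the 8 genes, against 12.8% of all tested genes, and Lama1 was well above background on no array.

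Of the other MARK kinases and polarity genes, 23 of 26 were tested, 12 were higher in geriatric cells and the median difference was 0.02, which turned to -0.069 with median and -0.041 with quantile scaling. Mark1, a kinase related to Mark2, read -1.81, -2.62 and -2.48 in the geriatric samples, against -3.47, -3.22 and -4.50 in the young samples. The groups did not overlap, and the difference was 1.43 (SE 0.41, limma adjusted p = 0.524). Numbl, which encodes a relative of the asymmetrically inherited protein Numb, differed by 0.39 (SE 0.23, limma adjusted p = 0.790). Prkcz, an atypical protein kinase C of the Par complex, differed by -0.47 (SE 0.29, limma adjusted p = 0.798) with its brightest probe and by 2.87 and 0.30 with its other probes, which thus pointed the other way. Groups did not overlap for 2 of the 23 genes, against 12.8% of all tested genes.

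**Figure D4:**
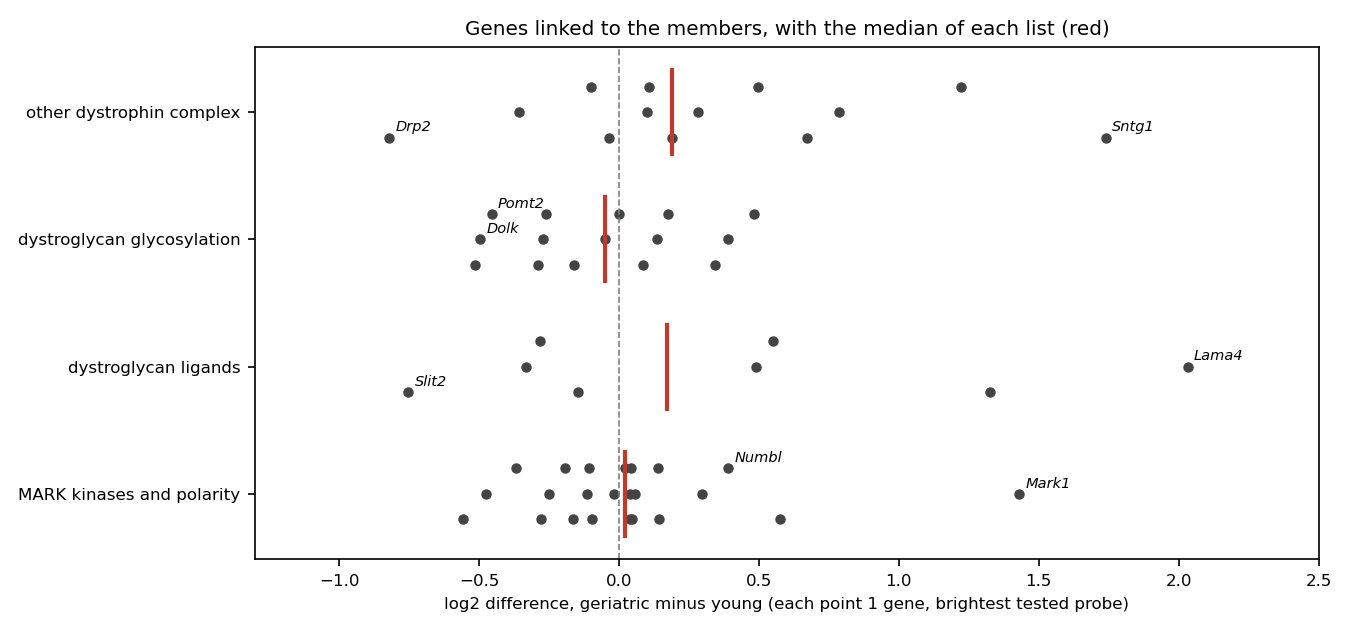
Log2 difference, geriatric minus young (horizontal axis), of the 59 tested genes of the 4 lists, 1 point per gene by its brightest tested probe, with the 2 genes of smallest unadjusted p named in each list. Red bars are the list medians of 0.19, -0.05, 0.17 and 0.02, top to bottom, and the last of these is negative with median or quantile scaling and the one before it with the filter on all 7 arrays; no gene passed the test.

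The identity of the sorted cells was read from 12 satellite cell markers, all of them tested and 0 called. Pax7 averaged 4.12 ± 0.22 in geriatric and 4.09 ± 0.37 in young cells, and Itga7, the sorted integrin, 1.58 ± 0.26 in geriatric and 2.02 ± 0.09 in young cells (SD, n = 3 samples each). Itga7 thus differed by -0.44 (SE 0.20, limma adjusted p = 0.720). It was the 1 of the 12 markers whose groups did not overlap, against 12.8% of all tested genes. Markers of fibro-adipogenic progenitors, which make matrix in muscle, were higher in geriatric cells for 8 of 10 tested genes with a median of 0.92 and 0 called, while Pdgfra, a defining marker, was well above background on no array. Their summed signal, in units of the array's 75th percentile, was 43.2 to 51.8 in geriatric and 32.6 to 42.9 in young samples. Their smallest unadjusted p-values were those of Dpt, Cd55 and Dcn, with differences of 0.74, 1.47 and 1.56 (limma adjusted p = 0.409, 0.498 and 0.649). At an unadjusted limma p below 0.05 there were 4 of the 10 genes, against 6.69% of all tested genes. Groups did not overlap for 3 of the 10, against 12.8% of all tested genes. Sca1, encoded by Ly6a of this list, was selected against in the sort of both groups. The sums of this list did not overlap between the groups, by the narrow margin of 43.2 in geriatric against 42.9 in young samples. They came mostly from Dcn and from Col3a1, which differed by -0.13 (SE 0.27, limma adjusted p = 0.949). The part of these markers in the Lama4, Utrn and Sgca values was not tested. Among pericyte and smooth muscle markers, 6 of 10 tested genes were higher in geriatric cells and 4 lower, with 0 called. Pdgfrb averaged -1.39 ± 0.14 in geriatric and -3.62 ± 0.27 in young cells (SD, n = 3 samples each), a difference of 2.24 (SE 0.21, limma adjusted p = 0.0887). Cspg4 differed by 0.39 (SE 0.18, limma adjusted p = 0.715), while Kcnj8, near background, differed by -2.43 (SE 1.32, limma adjusted p = 0.773). Pdgfrb and Cspg4 were the 2 of the 10 genes whose groups did not overlap, against 12.8% of all tested genes. The part of these markers in the member and Lama4 values was not tested. Myofibre markers, which matter for Sgca and Dmd, were higher in geriatric cells for 7 of 14, with sums of 19.7 to 30.7 in geriatric and 22.1 to 26.2 in young samples. The part of myofibre RNA in the Sgca and Dmd values was not tested. The sums of Schwann cell markers were 47.5 to 52.0 in geriatric and 42.4 to 49.1 in young samples, those of pericyte and smooth muscle markers 138 to 161 and 133 to 155, those of endothelial markers 8.53 to 12.1 and 7.87 to 9.62, and those of macrophage markers 96.1 to 115 and 92.0 to 102 in geriatric and in young samples. These sums rest on few bright genes and do not measure how many such cells were present. Itgam, at a mean log2 level of 6.60 in geriatric and 6.54 in young cells, made up nearly all of the macrophage sum. It encodes CD11b, which was selected against in the sort of both groups, and the source of its signal was not tested. Lyz2 and Mrc1 were well above background on no array. Mcam and Notch3 carried most of the pericyte and smooth muscle sum, Ncam1 and Pmp22 most of the Schwann cell sum, and Tek most of the endothelial sum. Most of the myofibre sum came from Atp2a1, which differed by -0.04 (SE 0.24, limma adjusted p = 0.983).

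The genes whose levels followed those of Dmd, Mark2 and Pard3 most closely over the 6 samples were found among 14225 tested named genes, as a description of these samples. The measure was the root mean square difference between the 2 genes' levels, each centred on its own mean, with the brightest probe of each gene. Nearest to Dmd were Dennd1a (0.051), Sgk3 (0.065) and Trp53inp1 (0.068), where Dmd itself had an SD of 0.22 over the 6 samples. Nearest to Mark2 were Tacr2 (0.020), Shroom1 (0.023) and Snap23 (0.027), and nearest to Pard3 were Fam36a (0.023), Atp13a4 (0.041) and Il3ra (0.043). Mark2 and Pard3 varied little, with SDs of 0.10 and 0.11. No other gene of the 8 or of the 4 lists was among these nearest genes.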

How the data were processed

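Per the file headers, Agilent Feature Extraction 10.7.3.1 produced the spot intensity values. The processed signal, the deposited intensity used here, had the background subtracted and was detrended within each array, per the file headers. The authors' value table held log2 values with a median of 8.02 in every column, not centred by gene, and each column correlated with that array's own log2 mean signal at over 0.999. How its background was corrected is not stated. The table was used in an alternative only.

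Each array was scaled to the 75th percentile of its processed signals (1330 to 1612 intensity units), and log2 was taken. Spots marked as outliers, 124 to 229 on an array, were dropped, and spots of a probe were averaged. A probe was tested when 3 or more of 7 arrays had it well above background; 38044 to 41289 probes per array were. The number of arrays limits the precision. Geriatric arrays 1 and 2 correlated at 0.992, and 95.0% of their probes lay within 2 combined errors, against 58.4% to 65.7% for other pairs. All arrays lay on 1 slide with 1 scan date, and the slide row was an alternative block. Tests used limma 3.58.1 (lmFit, eBayes, 2-sided) in R 4.3.3 with the package data.table (version 1.17.8), and Benjamini-Hochberg adjustment over all tested probes with a threshold of 0.05. The fit was tested on simulated data. Figures used matplotlib 3.10.9 in Python 3.11.15.

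The members, the 4 pathway lists and the 7 marker lists were chosen with earlier results of these data known. Named were all probes of the members, of each pathway list the 3 genes of smallest unadjusted p (some items are not reported here), and for Dmd, Mark2 and Pard3 the 3 genes nearest in level; of the marker lists, defining genes and those beside a result were named. Alternatives were normexp background correction, quantile and median scaling, other filters, outlier spots kept, geriatric arrays 1 and 2 kept apart, blocks, and each replicate left out.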

Additional observations from a re-analysis of the deposited data

How the results depend on the processing

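Of 357 values of the 18 probes under the alternatives, 312 kept their sign, 45 changed it and 0 passed the test; the counts of called member probes and of called list genes were 0 under every alternative run. The count of all called probes, 6 in the main analysis, was 2 with normexp, 2 with the authors' values, 0 with no filter, 0 with the filter on all 7 arrays and 103 with geriatric arrays 1 and 2 as separate samples. It was 0 with a replicate block by sample names, 0 with a replicate block by title numbers and 0 with the slide row as a block, and 0 to 10 when a replicate was left out (0 without each young array, without geriatric array 3, without geriatric array 4 and without geriatric arrays 1 and 2 together, 10 without geriatric array 1). Same-numbered samples did not deviate together (correlations of their deviations from the group means -0.037, 0.027 and 0.038), and 2 of 6 samples correlated best with their own number, so the replicate block was not taken as a pairing. Signs turned only at small or noisy differences, and the cause was not tested. With normexp, Sgcb A_55_P2182867 gave -0.0016 and Pard3 A_52_P51548 0.015; with the authors' values they gave -0.0027 and 0.015; with quantile scaling Pard3 A_52_P51548 gave 0.013 and Dmd A_55_P2093624 -0.042. With median scaling, Dmd A_52_P306697 gave -0.052, Dag1 A_51_P148675 -0.034, Sgcb A_55_P2016119 -0.023, Sgcb A_55_P2182867 -0.049, Pard3 A_55_P1985025 -0.040 and Pard3 A_55_P1985015 -0.045. With geriatric arrays 1 and 2 separate, Pard3 A_55_P1985025 gave -0.0084 and the ratio of Dmd A_55_P2093624 over A_55_P2167913 gave 0.39. With the replicate block by title numbers, Pard3 A_55_P1985025 gave -0.078 and Pard3 A_55_P1985015 -0.083. With the slide row as a block and within row 1, Dmd A_55_P2167922 gave -0.073 and Pard3 A_55_P1985025 -0.18. Both of these settings set geriatric array 1 alone against the young arrays.

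Leaving out a replicate gave, as lowest and highest difference, -0.089 and 0.20 for Dmd A_52_P306697, -1.28 and 1.31 for Dmd A_55_P2093624, -0.019 and 0.12 for Dag1, -0.15 and 0.34 for Sgcb A_55_P2016119, -0.18 and 0.31 for Sgcb A_55_P2182867, -0.060 and 0.42 for Sgcb A_66_P108345, and -2.01 and 0.44 for Sgcd A_51_P389004. It gave -0.11 and 0.020 for Mark2, -0.24 and 0.046 for Pard3 A_55_P1985012, -0.033 and 0.16 for Pard3 A_55_P1985025, -0.30 and 0.33 for Pard3 A_55_P1985015, and -0.090 and 0.040 for Pard3 A_52_P51548. Without a change of sign, it gave 0.045 and 0.29 for Dmd A_55_P2167913, 0.065 and 0.37 for Dmd A_55_P2167922, 0.44 and 0.91 for Sgca A_55_P2007384, 0.27 and 0.86 for Sgca A_55_P2020706, 0.17 and 2.49 for Sgcd A_55_P2138714, and 0.27 and 0.45 for Utrn. Over all alternatives the list medians ran over 0.045 to 0.35 for the other dystrophin complex, -0.22 to 0.032 for glycosylation, -0.15 to 0.24 for ligands and -0.081 to 0.085 for polarity. Of the probe ratios, it gave -0.15 and 0.083 for Dmd A_55_P2167922 over A_55_P2167913, -1.53 and 1.07 for Dmd A_55_P2093624 over A_55_P2167913, -0.17 and 0.064 for Sgca, -0.015 and 0.23 for Sgcb A_66_P108345 over A_55_P2016119, and, over Pard3 A_52_P51548, -0.15 and 0.059 for A_55_P1985012, -0.0035 and 0.19 for A_55_P1985025 and -0.27 and 0.42 for A_55_P1985015. The 3 dim probes of Sgcd and Dmd are limited by signal near background.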

Other observations

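Within the span of Dmd on mm9 the array holds 3 probes with other names, looked up after the values of Dmd were seen. A_55_P1952664 (chrX:82293736-82293795, minus strand) differed by 0.30 between geriatric and young cells (SE 0.23, limma adjusted p = 0.846). A probe for an Ensembl transcript on the plus strand (A_55_P2167930, chrX:82220987-82221046) differed by 0.32 (SE 0.35, limma adjusted p = 0.902). The probe for Tsga8, a gene on the opposite strand to Dmd (A_55_P2033922, chrX:80732030-80732089), differed by -0.01 (SE 0.18, limma adjusted p = 0.992).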
